A study of Arabidopsis thaliana with 8 samples.

Results

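Anthocyanins are the red and purple flavonoid pigments of the plant epidermis and vacuole. In Arabidopsis thaliana, early flavonoid enzymes make dihydroflavonols, late enzymes turn these into the unstable anthocyanidins, and glycosyltransferases and acyltransferases then decorate the pigment so that it can be stored. The late genes of this route are well known to be switched on together by a complex of MYB, bHLH and WD40 proteins, and seedlings colour more readily in the cool and in strong light.

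The 4 genes described here act late in that route, and they were taken by name: DFR (AT5G42800), UF3GT (AT5G54060), AT4G14090 and AT5MAT (AT3G29590). DFR is dihydroflavonol 4-reductase, which commits dihydroflavonols to the anthocyanin side of the pathway. UF3GT carries the name of a flavonoid 3-O-glucosyltransferase, although the Arabidopsis enzyme is known to add xylose to the sugar at position 3. AT4G14090 is the anthocyanidin 5-O-glucosyltransferase, and AT5MAT is the malonyltransferase that acylates the glucose placed at position 5. Each was read by 1 probe set (249215_at, 248185_at, 245624_at and 256924_at, in the order given), so the group held 4 of the 13074 genes that could be named among 22746 probe sets.

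The signals came from 8 ATH1 GeneChip arrays of RNA from shoot apices of plants collected at day 15 under 16 hours of light and 8 hours of dark. Wild-type Col-0, the single mutants as2-1 and rh10-1 and the double mutant as2-1 rh10-1 were each grown at 22 °C and at 26 °C, with 1 array per genotype and temperature. as2-1 carries a lesion in the leaf polarity gene AS2 and had been outcrossed to Col-0, and rh10-1 is a single missense allele of the nucleolar RNA helicase gene RH10 found in mutagenised as2-1 seeds, so transcript level does not check that label. Nothing in the labels says how many plants an array stood for, and the 4 arrays of each temperature form a set of their own, so growth temperature and any difference between the sets cannot be told apart.

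Array medians ran from 69.6 to 79.9, the 20th percentile of all probe sets from 8.9 to 11.5 and the 40th from 38.9 to 44.5. Of the markers listed for the labelled tissue only 4 of 20 could be named, and CLV3 (0.9 to 26.8) and UFO (1.0 to 56.5), stem cell and floral meristem genes of very few cells, were under the 40th percentile in all arrays but 1, UFO in the double mutant at 26 °C, whereas the leaf polarity genes YAB3 (270.0 to 508.1) and YAB5 (62.6 to 245.8) were above it. The summed signal of these 4 was 574.4 to 782.1 at 22 °C and 390.2 to 566.3 at 26 °C. For 5 of 13 markers of expanded leaf it was 19817.0 to 25781.0 and 17353.1 to 21681.7, and for the root hair gene EXPA7, the 1 named of 6 root markers, 3.6 to 11.6 and 1.0 to 5.7, and none of 6 floral organ markers was named. The shoot apex sum was higher at 22 °C in 4 of 4 genotypes and the expanded leaf and root values in 3 of 4, with overlapping ranges. Within the leaf sum, LHCB4.1 and LHCB4.2, light-harvesting antenna genes, were lower at 22 °C in 3 of 4 and 4 of 4 genotypes. The part of these markers in the results was not tested.

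All 4 genes had far higher signals at 22 °C than at 26 °C in every genotype. With signals as deposited they included the 3 widest rises toward 22 °C among the 8399 genes tested. At 22 °C they lay between the 77.8 and the 98.6 percentile of their arrays. At 26 °C all 16 signals were under the 40th percentile and 10 of 16 under the 20th. No mutant differed from Col-0 by 2-fold at 22 °C in any of the 4. Of all genes tested, only 5.16% in as2-1, 10.2% in rh10-1 and 8.98% in the double mutant did.

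Col-0 gave a DFR signal of 3122.9 at 22 °C, as2-1 gave 3452.6, rh10-1 gave 2342.0 and the double mutant gave 2308.6. At 26 °C the signals were 5.8, 13.6, 16.0 and 19.7 in the same order of genotypes. The lowest signal at 22 °C was 117-fold above the highest at 26 °C, and only the Col-0 signal at 26 °C was under the 20th percentile of its array.

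For UF3GT the 22 °C signals were 994.7 in Col-0 and 1290.4 in as2-1, with 909.4 in rh10-1 and 840.8 in the double mutant. The 26 °C signals were 27.5, 2.0, 2.1 and 2.7. Wild type stood apart at 26 °C as the only array over the 20th percentile, and the groups were still separated by 30.6-fold at their nearest.

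AT4G14090 gave 1187.8 in Col-0 at 22 °C, with 1399.6 in as2-1, 1218.4 in rh10-1 and 694.7 in their combination. Its signals at 26 °C were 2.7, 3.4, 4.5 and 2.1, all under the 20th percentile. The closest signals of the temperatures were 154-fold apart, a ratio taken against background.

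AT5MAT read 266.4 in Col-0 at 22 °C, with 403.1 in as2-1, 266.9 in rh10-1 and 293.7 in the double mutant. Its 26 °C signals were 1.8, 10.1, 17.2 and 4.0, with Col-0 and the double mutant under the 20th percentile. The closest signals of the temperatures differed by 15.5-fold.

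**Figure D1:**
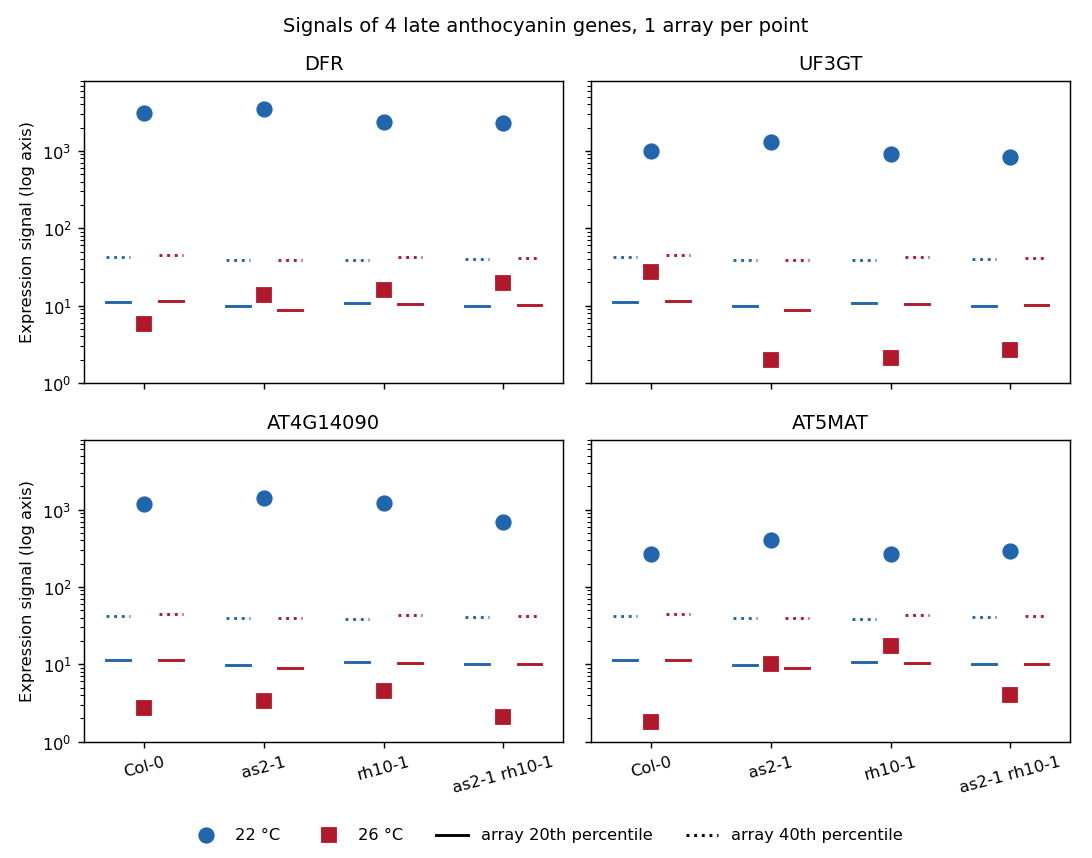
Array signal (linear intensity on a log axis) of the 4 late anthocyanin genes in each genotype at 22 °C and 26 °C, 1 point per array, beside the 20th and 40th percentiles of the arrays. Every 22 °C point sits above every 26 °C point of its gene, and all 26 °C points lie under the 40th percentile.

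In a limma fit of log2 signal with genotype as a block, all 4 genes passed at a Benjamini-Hochberg adjusted p under 0.05, and 17.1% of all genes tested passed in the same direction. The genes entered the fit through their 22 °C arrays alone and were chosen with results of these data known, so these values describe the size of the difference and are not independent evidence for it. AT4G14090 differed by 8.48 on the log2 scale (22 minus 26 °C, SE 0.23, 95% interval 7.95 to 9.01, limma adjusted p = 5.1e-07), which ranked 1 of 8399. UF3GT followed with 7.89 (SE 0.58, interval 6.58 to 9.20, limma adjusted p = 6.1e-05, rank 2), and DFR with 7.78 (SE 0.32, interval 7.05 to 8.51, limma adjusted p = 5.9e-06, rank 3). The intervals of these 3 overlap, so their order is not resolved, and with quantile normalization DFR ranked 4. AT5MAT differed by 5.67 (SE 0.48, interval 4.58 to 6.76, limma adjusted p = 1.1e-04, rank 5), and the gene at rank 4, AT5G62210, is described with the nearest profiles. The median over all genes tested was -0.06.

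The separation of the arrays was complete for each of the 4 genes, and 16.7% of all genes tested likewise had every 22 °C signal above every 26 °C signal. The exact two-sided permutation test of 4 against 4 arrays gave p = 0.0286 for each gene, the smallest it can give, with the same limit. With arrays paired by genotype the exact p was 0.125, again the smallest possible.

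Since the 26 °C signals were close to background, the size of each fold depends on how low signals are treated. As deposited, the differences correspond to 357-fold for AT4G14090, 237-fold for UF3GT, 220-fold for DFR and 50.9-fold for AT5MAT. With signals under the 20th percentile of an array raised to that percentile, DFR stood at 185-fold and ranked 1, AT4G14090 at 107-fold and 2, UF3GT at 78.4-fold and 3, and AT5MAT at 25.4-fold and 5. With the 40th percentile as the floor, a setting added after the data were seen, which replaces every 26 °C signal of the group, the fitted difference was 65.9-fold for DFR (rank 1), 26.0-fold for AT4G14090, 23.7-fold for UF3GT and 7.22-fold for AT5MAT (rank 21). The direction and the call of all 4 held under each of these floors. In bulk RNA, fewer cells that express the genes and less RNA per cell cannot be told apart.

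**Figure D2:**
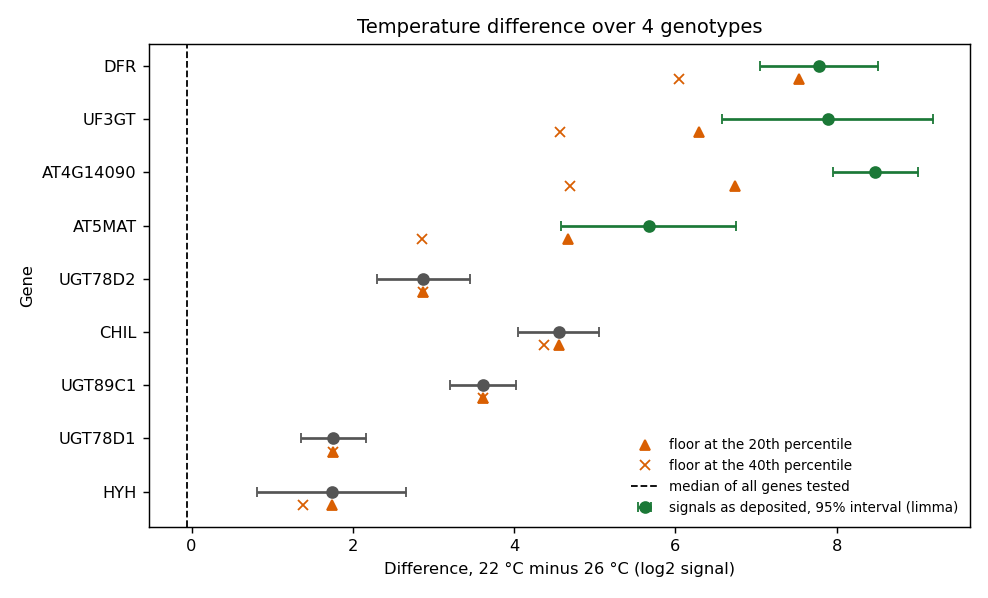
Difference in log2 signal, 22 minus 26 °C, for the 4 genes and the 5 other pathway genes tested, with the limma estimate and its 95% interval (circles and bars) and the estimates with floors at the 20th (triangles) and 40th percentile (crosses); the dashed line is the median of all genes tested. The 4 late genes lie between 5.67 and 8.48 and the other pathway genes between 1.74 and 4.55, and the floors lower the late genes most. With the 40th percentile as a floor AT5MAT (2.85) falls below CHIL (4.37), UGT89C1 (3.61) and UGT78D2 (2.88), while the other late genes stay above all 5.

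Within genotypes the temperature difference of AT4G14090 was even, at 8.78 in Col-0, with 8.69 in as2-1, 8.08 in rh10-1 and 8.37 in the double mutant on the log2 scale. DFR ran from 9.07 in Col-0 through 7.99 in as2-1 and 7.19 in rh10-1 to 6.87 in the double mutant. UF3GT was the opposite in wild type, with 5.18 in Col-0 against 9.33, 8.76 and 8.28 in the mutants. AT5MAT spread from 3.96 in rh10-1 to 7.21 in Col-0, with 5.32 in as2-1 and 6.20 in the double mutant. The spread over genotypes in DFR, UF3GT and AT5MAT follows their 26 °C signals, which varied on the log2 scale by more than those at 22 °C.

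**Figure D3:**
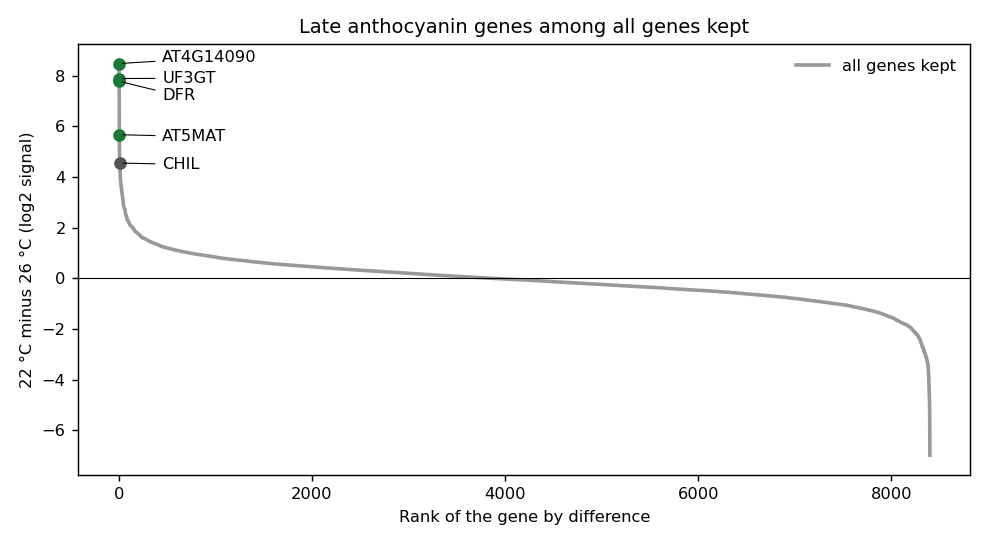
All 8399 genes ordered by their difference in log2 signal, 22 minus 26 °C, with the 4 late anthocyanin genes and CHIL marked. The late genes hold ranks 1, 2, 3 and 5, and CHIL rank 8.

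Of 59 other genes listed for the pathway and its control, 8 could be named and 5 passed the filter on low signals. All 5 were higher at 22 °C by the limma fit, with a median difference of 2.88 on the log2 scale, against 17.1% of all genes tested. Most of the route, including CHS, F3H, LDOX and the regulators PAP1 and TT8, lies among the probe sets with no usable gene name and is not analysed here.

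Upstream, CHIL, a chalcone isomerase-like protein that aids flavonoid synthesis, read 1168.7, 1692.3, 838.6 and 762.6 at 22 °C (Col-0, as2-1, rh10-1, as2-1 rh10-1) and 49.0, 53.9, 62.9 and 25.1 at 26 °C. Its difference of 4.55 (limma adjusted p = 1.2e-05) ranked 8. Among the late genes, UGT78D2 puts glucose on position 3 of both anthocyanidins and flavonols. It read 1169.1, 1251.7, 1081.8 and 701.1 at 22 °C and 150.7, 111.6, 115.7 and 196.0 at 26 °C, a difference of 2.88 (limma adjusted p = 1.3e-04). Unlike the 4 genes of the group, UGT78D2 stayed well over the 40th percentile at 26 °C.

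On the flavonol branch, UGT89C1, the flavonol 7-O-rhamnosyltransferase, was higher at 22 °C by 3.61 (limma adjusted p = 1.2e-05), and UGT78D1, the flavonol 3-O-rhamnosyltransferase, by 1.76 (limma adjusted p = 2.5e-04). The lowest 22 °C signal of UGT89C1 was 733.6 and its highest at 26 °C was 118.6. For UGT78D1 these were 581.4 and 366.3. HYH, a bZIP factor of light signalling and a partner of HY5, was the only activator named, and it differed by 1.74 (limma adjusted p = 0.0097). It read 206.5, 145.3, 103.5 and 106.2 at 22 °C and 27.2, 23.6, 48.7 and 84.8 at 26 °C, and without the as2-1 array at 22 °C its difference was 1.45 (limma adjusted p = 0.0523).

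The 3 named genes that never exceeded the 40th percentile were UGT78D3, a flavonol 3-O-arabinosyltransferase (1.1 to 13.2 over 8 arrays), BAN, the anthocyanidin reductase that leads to seed coat proanthocyanidins (1.1 to 9.9), and TRY, an R3 MYB inhibitor best known from trichome patterning (5.9 to 36.2). BAN shares its anthocyanidin substrates with the late genes, but its signal was near background at both temperatures.

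The question across genotypes was whether as2-1, rh10-1 or their combination altered these genes within a temperature. At 22 °C, where all signals were well above background, none of the 12 ratios of a mutant to Col-0 reached 2-fold, and they ran from -0.77 to 0.60 on the log2 scale. Over all genes tested, 5.16% in as2-1, 10.2% in rh10-1 and 8.98% in the double mutant were at least 2-fold from Col-0.

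For DFR the log2 ratios at 22 °C were 0.14 in as2-1, -0.42 in rh10-1 and -0.44 in the double mutant, and for UF3GT 0.38, -0.13 and -0.24. For AT4G14090 they were 0.24, 0.04 and -0.77, so only the double mutant was set off from the other genotypes. For AT5MAT they were 0.60, 0.00 and 0.14, with Col-0 the lowest.

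as2-1 was above Col-0 at 22 °C for all 4 genes, as for 45.3% of all genes tested. It had the highest 22 °C signal of the 4 genotypes for all 4 genes, which also held for 16.6% of all genes tested. The double mutant had the lowest signal for DFR, UF3GT and AT4G14090, against 23.3% of all genes. It lay below as2-1 for all 4 genes, against 48.1% of all genes, by -0.58 for DFR, -0.62 for UF3GT, -1.01 for AT4G14090 and -0.46 for AT5MAT. AT4G14090 alone passed 2-fold there, as did 2.26% of all genes. With 1 array each, these orders are a description without a test, and the 4 genes share the same arrays.

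The spread over the genotypes at 22 °C was ordinary for DFR, UF3GT and AT5MAT, whose highest signals were 1.50-fold, 1.53-fold and 1.51-fold over their lowest, where the median over all genes was also 1.50-fold. AT4G14090 spread by 2.01-fold. Measured against the sum of both single mutants' log2 ratios, the double mutant differed by -0.17 for DFR, -0.49 for UF3GT, -1.05 for AT4G14090 and -0.46 for AT5MAT.

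The pathway genes outside the group ran in a like order at 22 °C. as2-1 was also highest for UGT78D2, CHIL and UGT78D1, whereas Col-0 was highest for UGT89C1 and HYH. The double mutant was lowest for all but HYH, with log2 ratios to Col-0 of -0.74 for UGT78D2, -0.62 for CHIL, -0.77 for UGT78D1 and -1.08 for UGT89C1. For HYH rh10-1 was lowest, just under the double mutant (-0.96).

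At 26 °C the ratios to Col-0 were wide, but they were ratios of signals near background. They were 1.23, 1.46 and 1.76 for DFR, -3.78, -3.71 and -3.35 for UF3GT, 0.33, 0.74 and -0.36 for AT4G14090 and 2.49, 3.26 and 1.15 for AT5MAT (as2-1, rh10-1 and the double mutant, log2 scale). Thus 9 of 12 reached 2-fold, where 6.18%, 8.69% and 14.8% of all genes tested did so in the respective mutants. With the 20th percentile as a floor, 3 of 12 did, all of them UF3GT (-1.63, -1.40 and -1.43), and they rest on the Col-0 signal of 27.5. With the 40th percentile as a floor none did. DFR, the gene with the fewest 26 °C signals under the 20th percentile, had ratios of 0.24, 0.48 and 0.78 with the 20th percentile as a floor. Only its Col-0 signal was raised there, so the order of the mutants could not change.

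**Figure D4:**
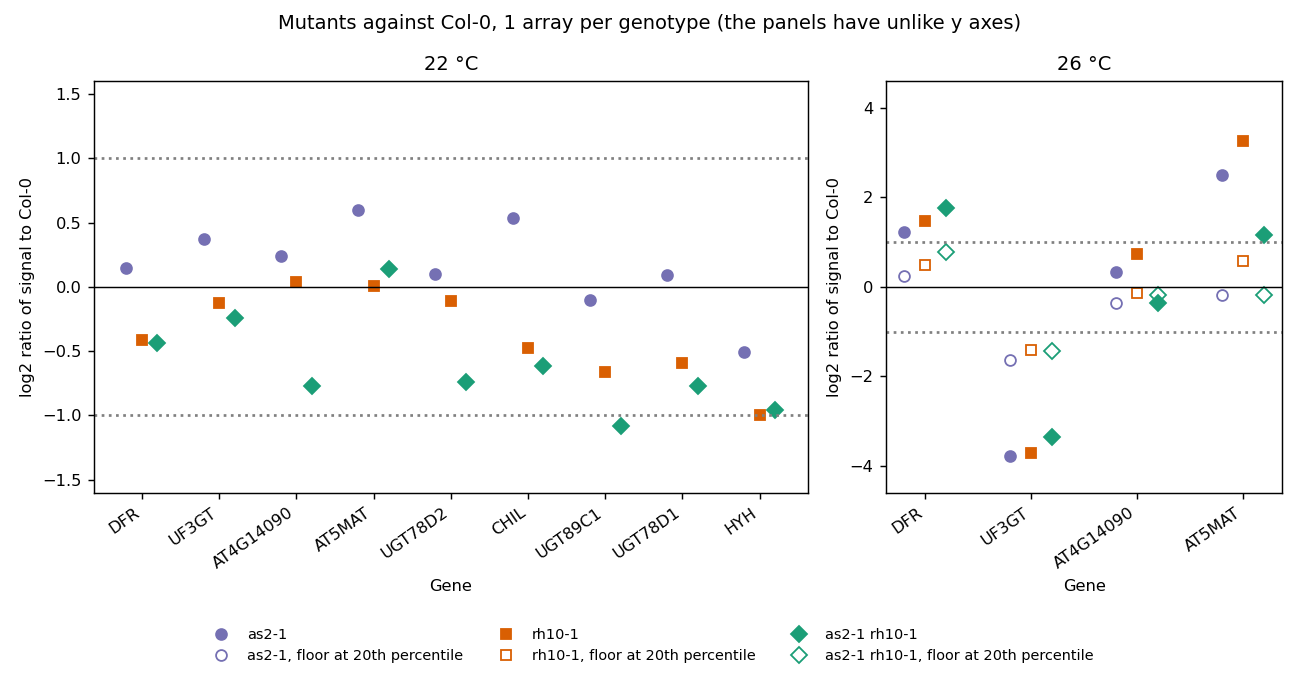
Log2 ratio of each mutant's signal to Col-0, at 22 °C for the 4 genes and 5 other pathway genes (left) and at 26 °C for the 4 genes (right), with dotted lines at 2-fold. Filled symbols are signals as deposited and open ones have the array's 20th percentile as a floor, under which only UF3GT stays past 2-fold at 26 °C.

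The effect of each mutation over both backgrounds was fitted with limma, on the assumption that as2-1 and rh10-1 add on the log2 scale. None of the 16 effects within a temperature passed at an adjusted p under 0.05, and 4 had an unadjusted p under 0.05. These 4 were DFR and UF3GT for both mutations at 26 °C, where the signals were near background. Of all genes, 11.4% for as2-1 and 16.1% for rh10-1 had such a p at 26 °C, and 3.89% and 13.0% at 22 °C. The share of all genes that passed after adjustment was 0.0952% of genes for as2-1 and 0.298% for rh10-1 at 22 °C, and 0.0357% and 2.38% at 26 °C. The effect of rh10-1 at 22 °C was -0.50 for DFR (95% interval -1.05 to 0.06), -0.37 for UF3GT (-1.95 to 1.21), -0.49 for AT4G14090 (-1.41 to 0.44) and -0.23 for AT5MAT (-2.03 to 1.58). The effect of as2-1 there was 0.06 for DFR (-0.49 to 0.62), 0.13 for UF3GT (-1.45 to 1.71), -0.29 for AT4G14090 (-1.21 to 0.64) and 0.37 for AT5MAT (-1.44 to 2.17). The spread behind these intervals includes the 26 °C arrays, whose signals were near background.

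The smallest adjusted p belonged to DFR and rh10-1 at 26 °C, with an effect of 1.00 (0.44 to 1.55, limma adjusted p = 0.0687), and it was 0.243 with the 20th percentile as a floor. With each temperature fitted alone, a setting added after the data were seen, none of the 16 passed, and 2 had an unadjusted p under 0.05. Over all genes 0.452% passed for as2-1 and 4.55% for rh10-1 at 22 °C, and 0.0119% and 0.548% at 26 °C. The shares with an unadjusted p under 0.05 were 5.43% and 16.4% at 22 °C, and 10.2% and 15.2% at 26 °C. The smallest limma adjusted p was 0.224, for AT4G14090 and rh10-1 at 22 °C (-0.49, -0.92 to -0.05).

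At 22 °C alone the intervals were narrower. For rh10-1 they were -0.98 to -0.02 for DFR, -0.81 to 0.06 for UF3GT and -0.66 to 0.21 for AT5MAT. For as2-1 they were -0.42 to 0.54 for DFR, -0.30 to 0.56 for UF3GT, -0.72 to 0.15 for AT4G14090 and -0.07 to 0.80 for AT5MAT. All 8 lay within 2-fold, but the fit had 1 residual degree of freedom and gave genes of like signal the same spread. The intervals therefore leave out each gene's own scatter and do not bound its effect. The rh10-1 log2 ratios of AT4G14090 at 22 °C were 0.04 over Col-0 and -1.01 in the double mutant over as2-1. Both lie outside the -0.92 to -0.05 that this fit gave. Of the other pathway genes, 3 passed there for rh10-1, namely UGT89C1 (-0.82, limma adjusted p = 0.010), CHIL (-0.81, limma adjusted p = 0.011) and UGT78D1 (-0.73, limma adjusted p = 0.026), and none of the 3 passed in the fit of both temperatures (limma adjusted p = 0.217, 0.323 and 0.271). Whether rh10-1 acted on these genes differently from the 4 late ones was not tested.

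Leaving out 1 array at 26 °C changed the count of late genes called within a temperature to 2 without Col-0, 4 without as2-1, 3 without rh10-1 and 6 without as2-1 rh10-1, in fits with 1 residual degree of freedom. These fits leave out each gene's own scatter. In them 0.658% to 7.08% of all genes passed per effect, against 0.0357% to 2.38% with all arrays.

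The difference of the mutant effects between temperatures passed for none of 8 limma tests, where 0.0119% of all genes passed for as2-1 and 0.56% for rh10-1. An unadjusted p under 0.05 was found for 1 of the 8, as for 5.92% and 14.3% of all genes for the respective effects. That 1 was DFR and rh10-1, whose effect at 22 °C less that at 26 °C was -1.50 (-2.28 to -0.71, limma adjusted p = 0.0992). Averaged over both temperatures, none of 12 limma contrasts of a mutant with Col-0 passed, 3 had an unadjusted p under 0.05, and the smallest adjusted p was 0.630. Over all genes 0.0% passed there, and 188, 595 and 682 of 8399 had an unadjusted p under 0.05 for as2-1, rh10-1 and the double mutant. The 3 were AT5MAT for both single mutants and UF3GT for rh10-1. With the 20th percentile as a floor none of the 12 had an unadjusted p under 0.05. Without 1 array at 26 °C some differences between temperatures were called, in the same fits that leave out each gene's own scatter.

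The 4 genes varied together over the 8 arrays, with Pearson's r between pairs from 0.850 for UF3GT and AT5MAT to 0.990 for DFR and AT4G14090. These values rest on the contrast between the temperatures that all arrays share, and 195 of the 8395 other genes (2.32%) had r of 0.95 or more with the mean log2 profile of the group. The 5 nearest were AT5G62210 (r = 0.997), AT4G39880 (0.994), AT2G19680 (0.992), AT4G16450 (0.991) and AT4G32870 (0.991).

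AT5G62210 was also alike in size, with 523.7, 597.1, 370.3 and 270.2 at 22 °C and 2.6, 1.7, 2.0 and 2.1 at 26 °C (Col-0, as2-1, rh10-1, as2-1 rh10-1), a difference of 7.66 on the log2 scale. As for the late genes, as2-1 was highest at 22 °C and the 26 °C signals were near background. The other 4 shared the shape but not the size, with differences of 0.87 for AT4G39880, 1.18 for AT2G19680, 0.85 for AT4G16450 and 2.11 for AT4G32870.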

How the data were processed

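Expression was measured in 8 shoot apex samples, 1 for each of 4 genotypes at each of 2 temperatures. The authors labelled the RNA with an Affymetrix 3′ kit, scanned ATH1 arrays and computed a signal per probe set with GCOS (version 1.4.0.036), and the deposited values are linear intensity scaled to a common level. GCOS weighs perfect match against mismatch probes, so signals near 0 are imprecise and ratios between them are inflated. The number of arrays limits precision, and p-values measure only the spread between these samples, which may be technical. Detection calls were not used here.

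Signals under 0.1 (9 were listed at 0) were set to 0.1 and taken to log2 with no further scaling. Of 14016 probe sets in the naming table, 13513 had 1 gene, and without 283 ending in _s_at or _x_at 13230 stood for 13074 genes, the brightest probe set representing each. Another 8730 were unnamed. Genes above an array's 40th percentile in at least 1 of 8 arrays were tested (8399). The 4 late genes passed through their 22 °C arrays alone.

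limma 3.58.1 (R 4.3.3) with an intensity trend was fitted as genotype + temperature (3 residual degrees of freedom) and as as2 + rh10 with temperature interactions (2 residual degrees of freedom), with Benjamini-Hochberg adjustment over all genes, and both were tested on simulated data. Exact permutation tests were two-sided. Named genes were the 4 late genes, every measured gene of the pathway lists and the 5 nearest profiles. The members and lists were chosen with earlier results of these data known. Alternatives covered scaling, floors, filters, probe sets, the variance trend and leaving out each array. No sequence was used here.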

Additional observations from a re-analysis of the deposited data

How the results depend on the processing

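The temperature calls of the 4 late genes kept their direction and their side of the threshold under all 19 alternatives run, with log2 differences of 6.04 to 8.08 for DFR, 4.57 to 8.79 for UF3GT, 4.70 to 8.61 for AT4G14090 and 2.85 to 6.24 for AT5MAT, and adjusted p-values no higher than 0.0016, 0.0030, 1.3e-04 and 0.0030. Genotype calls within a temperature numbered 0 of 16 in the fit of all arrays and 0 to 6 with 1 array left out, and calls for a difference between temperatures 0 of 8 and 0 to 4. Without the 26 °C array of the wild type, as2-1, rh10-1 or the double mutant the former were 2, 4, 3 and 6 and the latter 1, 4, 1 and 4, with 1 residual degree of freedom left. In those fits 0.658% to 7.08% and 0.458% to 6.36% of all genes passed per effect, against 0.0357% to 2.38% and 0.0119% to 0.56% with all arrays. Without any 1 array at 22 °C both were 0. There 0.0% to 0.334% of all genes passed per effect within a temperature, and 0.0% for a difference between temperatures. These fits also had 1 residual degree of freedom but kept part of each gene's own scatter, which the fits without a 26 °C array left out. The count of 26 °C ratios past 2-fold went from 9 to 3 and to 0 with floors at the 20th and 40th percentile, by construction. HYH was weaker without the as2-1 array at 22 °C (1.45, adjusted p = 0.0523), and the cause was not tested. The other 76 counts stayed within 1.5 times their value, and 200 values of single genes counted as unchanged. The temperature differences among these 200 kept their call, though not their size. The log2 ratios to Col-0 at 22 °C among them had no test. They counted as unchanged if they moved by no more than the residual SD of the genotype + temperature fit, and the floors could not move them. Of the log2 ratios at 22 °C, rh10-1 over Col-0 turned sign for UF3GT with arrays centred on the median (-0.13 to 0.005) and for AT4G14090 with quantile normalization (0.04 to -0.04). The labels give no replicate numbers, so arrays were paired by genotype only. The planned search of promoters for motifs was not run. Signal over background limits every ratio at 26 °C.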
